A study of Mus musculus with 18 samples.

Results

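The genes of sterol, fatty acid and triglyceride synthesis were examined as a list of 45 members, matched by gene symbol in the deposited count table of 54532 genes. All 45 were found, and all 45 passed the filter on low counts that left 14317 genes for testing. The list divides into a sterol arm of 23 genes and a fatty acid and triglyceride arm of 22 genes. Members were matched by gene name, but the list was chosen with earlier results of these data known. Counts came from bulk RNA sequencing of poly(A) RNA from 10T1/2 cells (spelled CH310T1/2 in the sample labels), a mouse fibroblast line that can enter the adipocyte lineage. The 18 libraries form 6 groups of 3. WT cells, FOXS1 KO clone 1 and FOXS1 KO clone 2 were each left uninduced or were stimulated, first with TGF-β1 (1 nM, 12 h) and next with DMII (48 h). DMII is an adipogenic mix of insulin, indomethacin, dexamethasone and 3-isobutyl-1-methylxanthine. Stimulated cells received both TGF-β1 and DMII, so the effects of these agents cannot be told apart here. By the methods of the paper, TGF-β1 followed a night without serum, and the adipogenic mix was given in a medium other than the growth medium. Those methods do not say whether uninduced cells were handled alike, so effects of serum and medium cannot be told apart either. The KO cells were made with CRISPR-Cas9 and puromycin selection, and each KO line grew from a single cell, so each KO group represents 1 clone. FOXS1 is a forkhead transcription factor. The labels number the replicates without saying that they were separate cultures, so p-values measure only the spread between these libraries, which may be technical.

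Cells make cholesterol from acetyl-CoA through mevalonate, squalene and lanosterol. When sterols in the endoplasmic reticulum run low, SCAP carries the SREBP precursors to the Golgi, where they are cut to release transcription factors, and INSIG proteins retain SCAP when sterols are plentiful. SREBP-2, the product of *Srebf2*, is best known for activating the sterol enzymes, and the products of *Srebf1* are best known for the enzymes that make fatty acids. Fatty acids are built from acetyl-CoA, lengthened, desaturated, activated with coenzyme A and joined to glycerol in steps that end with triglyceride. These latter steps are known to increase as fibroblast-like precursors become adipocytes.

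Library totals ranged from 15576685 to 42005596 counts, and the 45 members took between 0.638% and 1.49% of each library. Levels are given as CPM, read counts relative to library size after TMM scaling, a correction for differences in library composition. *Foxs1*, the targeted gene, had 1.64 to 3.25 CPM in the 6 WT libraries and 21.1 to 56.8 CPM in the 12 libraries labelled FOXS1 KO. A count over the whole gene does not show whether its coding sequence was disrupted, so it does not check the labels, and each direction given for the clones rests on the labels. For the clones themselves, the paper reports a disrupted locus by sequencing of genomic DNA and loss of FOXS1 protein by western blot. Those are measures of DNA and protein and not of these libraries. The 6 fibroblast markers (*Col1a1*, *Col1a2*, *Vim*, *Pdgfra*, *Pdgfrb*, *Thy1*) summed to 26493 to 63315 CPM in a library, although *Thy1* was at 0.12 to 0.87 CPM in clone 2. Summed markers of haematopoietic, endothelial or epithelial cells did not exceed 3.23 CPM in any library. Of the 5 mature adipocyte markers, *Lep* had no count in any library, and the sum of all 5 was 14.1 to 17.9 CPM in stimulated clone 1 and at most 1.18 CPM elsewhere. In bulk RNA, fewer cells of a type and less RNA per cell cannot be told apart.

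The sterol arm was already higher in both FOXS1 KO clones before stimulation. A member was called when its adjusted p was below 0.05 and its change exceeded 2-fold (the quasi-likelihood test of edgeR, adjusted over all 14317 genes by the method of Benjamini and Hochberg). In uninduced clone 1, 7 of 23 sterol members were called higher than WT and 0 lower, where 6.32% of all genes were called higher and 8.73% lower. In uninduced clone 2, 11 of 23 were called higher and 0 lower, against 5.54% and 9.56% of all genes. The median log2 fold change of the arm was 0.87 in clone 1 and 1.00 in clone 2, while the medians over all genes were -0.0075 and -0.017. By adjusted p alone, 19 were higher and 0 lower in clone 1 (26.3% and 27.2% of all genes), and 21 were higher and 1 lower in clone 2 (26.3% and 26.9% of all genes). The 3 WT libraries serve both clones, so these comparisons are not independent.

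After TGF-β1 + DMII, the sterol arm again stood above WT in both clones. In stimulated clone 1, 6 of 23 members were called higher and 0 lower (9.42% and 9.6% of all genes), with a median log2 fold change of 0.89. In stimulated clone 2, 8 of 23 were called higher and 0 lower (7.95% and 8.94% of all genes), with a median of 0.81. The medians over all genes were -0.015 and -0.0097. *Pmvk* was the only sterol member called in both stimulated clones, and the 8 of clone 2 include *Fdps*, which is reported below as uncertain. By adjusted p alone, 22 members were higher and 0 lower in clone 1 (28.4% and 30.5% of all genes), and 22 were higher and 1 lower in clone 2 (27.7% and 28.3% of all genes). At an unadjusted p under 0.05, 0 members were lower in clone 1 and 1 was lower in clone 2, in either treatment, and the DESeq2 Wald test also called 0 lower in these 4 comparisons.

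Many sterol members differed between uninduced and stimulated cells, mostly by less than 2-fold. In WT cells, 1 of 23 was called higher on stimulation and 1 lower (6.25% and 13.6% of all genes), and the median log2 fold change of the arm was 0.20. By adjusted p alone, 13 were higher and 6 lower in WT cells (28.8% and 31.9% of all genes), 11 higher and 2 lower in clone 1 (25.9% and 28.6%) and 6 higher and 11 lower in clone 2 (26.7% and 29.1%). In clone 1, edgeR called 0 higher and 0 lower (5.95% and 10.7% of all genes), with a median of 0.12. In clone 2, it called 0 higher and 0 lower (6.46% and 11.2% of all genes), with a median of -0.16. The DESeq2 Wald test also called none in either clone. At an unadjusted p under 0.05, 11 members were higher and 3 lower in clone 1, and 6 were higher and 12 lower in clone 2. The summed level of the arm did not overlap between genotypes within a treatment. It was 1901 to 1939 CPM in uninduced and 2061 to 2181 CPM in stimulated WT cells. Clone 1 reached 3365 to 3440 CPM uninduced and 3803 to 3824 CPM stimulated, and clone 2 reached 3874 to 4111 and 3886 to 3977 CPM.

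The first 7 sterol members make isoprenoid units from acetyl-CoA by way of mevalonate. All 7 were higher by adjusted p alone in each clone in each treatment, with log2 fold changes of 0.50 to 2.21 and 0.56 to 2.81 in uninduced clones 1 and 2 and of 0.42 to 1.97 and 0.17 to 1.68 in stimulated clones 1 and 2. *Hmgcs1* (ENSMUSG00000093930, chromosome 13 of GRCm38 from 119690379 to 119708260), which makes HMG-CoA, was at 163, 167 and 153 CPM in uninduced WT cells and at 187, 184 and 185 CPM in stimulated WT cells. In clone 1 it was at 378, 386 and 376 CPM uninduced and at 437, 493 and 492 CPM stimulated. In clone 2 it was at 278, 271 and 267 CPM uninduced and at 240, 228 and 229 CPM stimulated. The groups did not overlap within a treatment, with clone 1 highest in both. *Hmgcs1* rose in clone 1 in uninduced cells (log2 fold change 1.24, SE 0.048, edgeR adjusted p 3.68e-19) and in stimulated cells (1.35, SE 0.048, edgeR adjusted p 1.76e-20). Its log2 fold changes in clone 2, 0.76 uninduced and 0.33 stimulated, did not reach the fold threshold. In the annotation, 12.1% of its exonic bases lie under an antisense gene, and the strand setting of the counting is not given in the sources used here.

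*Pmvk*, the kinase that makes mevalonate diphosphate, was the sterol member called lower on stimulation in WT cells. The 5 others lower by adjusted p alone were *Insig2*, *Insig1*, *Lss*, *Ebp* and *Mvk*, with log2 fold changes of -0.91 to -0.27. It was at 10.8, 18.8 and 17.5 CPM in uninduced and at 5.82, 6.52 and 6.04 CPM in stimulated WT cells (log2 fold change -1.36, SE 0.15, edgeR adjusted p 1.39e-08). In clone 1 it was at 29.5, 32 and 25.3 CPM uninduced and at 27.5, 23 and 22 CPM stimulated. Clone 2 had it at 30.6, 32 and 32.1 CPM uninduced and at 21.2, 19.4 and 18.4 CPM stimulated. Every clone library thus lay above every WT library of its treatment. In stimulated cells *Pmvk* was 3.93-fold higher in clone 1 (edgeR adjusted p 6.78e-12) and 3.2-fold higher in clone 2 (edgeR adjusted p 3.31e-10). The thiolase *Acat2*, at 51.3 to 157 CPM over all libraries, was called higher in uninduced clone 2 (log2 fold change 1.02) and stimulated clone 1 (1.04). *Mvd*, the decarboxylase that makes isopentenyl diphosphate, was called higher in uninduced clone 2, at 64.8 to 67.8 CPM against 21.6 to 27.2 CPM in WT cells. *Idi1*, the isomerase of that product, was called higher in stimulated clone 2, at 98.4 to 109 CPM against 46.8 to 51.5 CPM. *Mvk*, mevalonate kinase, was at 45.1 to 83 CPM over all libraries and was not called.

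*Fdps*, the farnesyl diphosphate synthase, is reported as uncertain. Of its exonic bases, 26.7% lie under the antisense gene *Gm43738*, and 21.4% of its 100-base stretches also occur in other genes of the annotation. It was at 0.0582, 0.734 and 1.26 CPM in uninduced WT cells and at 0.929, 1.55 and 2.43 CPM in stimulated WT cells, and these groups overlapped although the increase was called (log2 fold change 1.15, SE 0.43, edgeR adjusted p 0.0229). The call was lost without WT uninduced replicate 1, WT uninduced replicate 2 or WT stimulated replicate 3, which left *Pmvk* as the 1 sterol member called. It was at 3.21 to 3.59 CPM in uninduced clone 1 and at 4.82 to 5.62 CPM in uninduced clone 2, and both rises over WT were called (log2 fold changes 2.21 and 2.81). Shared stretches also made up 28.9% of *Acat2*, 21.9% of *Idi1* and 18.3% of *Fdft1*, which makes squalene.

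The next 3 enzymes close the sterol ring system. *Sqle* (ENSMUSG00000022351, chromosome 15 of GRCm38 from 59315077 to 59331192) encodes squalene epoxidase, a slow step of the pathway. It was at 125, 119 and 126 CPM in uninduced WT cells, at 336, 328 and 329 CPM in clone 1 and at 499, 470 and 471 CPM in clone 2. Following TGF-β1 + DMII, it was at 203, 194 and 192 CPM in WT cells, at 352, 357 and 370 CPM in clone 1 and at 502, 464 and 463 CPM in clone 2. The order WT, clone 1, clone 2 held without overlap in both treatments. *Sqle* rose in uninduced clone 1 (log2 fold change 1.42, SE 0.046, edgeR adjusted p 3.2e-21) and clone 2 (1.96, SE 0.046, edgeR adjusted p 1.38e-24), and in stimulated clone 2 (1.28, SE 0.045, edgeR adjusted p 1.77e-20). In stimulated clone 1 the log2 fold change was 0.87. The gap narrowed on stimulation, when the WT level was higher (log2 fold change 0.67 in WT cells), and the response of *Sqle* differed from WT by -0.55 in clone 1 (edgeR adjusted p 3.39e-08) and by -0.68 in clone 2 (edgeR adjusted p 5.17e-10), both under the fold threshold. *Fdft1* rose in uninduced clone 2, at 229 to 247 CPM against 93.1 to 97.6 CPM in WT cells. *Lss*, lanosterol synthase, was at 60.5 to 65.2 CPM in uninduced clone 1 and at 59.1 to 68.1 CPM in WT cells, so those groups overlapped. *Lss* lies on chromosome 10, whose 518 tested genes with mean levels of 5 CPM or more had a median of -0.41 (log2) in uninduced clone 1. Less that median, *Lss* differed from WT by 0.40 there.

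The 8 enzymes that turn lanosterol into cholesterol were all higher in each clone in each treatment by adjusted p alone, with log2 fold changes of 0.23 to 1.12 and 0.36 to 1.62 in uninduced clones 1 and 2 and of 0.21 to 1.29 and 0.36 to 1.40 in stimulated clones 1 and 2. Of these 8, 2 were called higher in uninduced clone 1, 5 in uninduced clone 2, 3 in stimulated clone 1 and 3 in stimulated clone 2. *Cyp51*, the lanosterol demethylase, was at 115, 121 and 121 CPM in uninduced WT cells, at 231, 231 and 220 CPM in clone 1 and at 378, 373 and 345 CPM in clone 2. Stimulated libraries had it at 185, 165 and 176 CPM, at 329, 332 and 329 CPM and at 473, 464 and 453 CPM, respectively. As for *Sqle*, clone 2 was highest and no groups overlapped within a treatment. *Cyp51* rose in clone 2 uninduced (log2 fold change 1.62, SE 0.048, edgeR adjusted p 4.5e-22) and stimulated (1.40, SE 0.047, edgeR adjusted p 6.22e-21). *Msmo1*, the methyl sterol oxidase, was called higher in uninduced clone 1 (297, 286 and 310 CPM against 157, 137 and 129 CPM in WT cells) and in clone 2 in both treatments. *Tm7sf2*, a sterol reductase, was called higher in clone 1 in both treatments, at 15.1 to 17.2 CPM against 4.78 to 9.07 CPM in uninduced WT cells and at 22.5 to 25.8 CPM against 9.03 to 10.4 CPM in stimulated WT cells. *Nsdhl*, a sterol dehydrogenase, was called higher in uninduced clone 2, at 128 to 138 CPM against 55.4 to 59.1 CPM, and in stimulated clone 1, at 156 to 173 CPM against 77.7 to 81.6 CPM. *Sc5d*, the desaturase, and *Dhcr7*, the last reductase, were called higher in uninduced clone 2 (log2 fold changes 1.18 and 1.12), and *Ebp*, the sterol isomerase, in stimulated clone 1 (1.02). *Hsd17b7*, the keto-steroid reductase, was highest in stimulated clone 2, at 321 to 342 CPM against 140 to 159 CPM in stimulated WT cells. The genes outside the naming rule, such as *Cyp51*, *Fdps* and *Stard4* here and several of the other arm below, were singled out after their values were seen.

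The regulators did not move as a block. *Srebf2* (ENSMUSG00000022463, chromosome 15 of GRCm38 from 82147181 to 82205379) was at 363, 355 and 349 CPM in uninduced and at 361, 351 and 364 CPM in stimulated WT cells. It was at 715, 723 and 729 CPM uninduced and at 678, 688 and 691 CPM stimulated in clone 1, and at 688, 687 and 676 CPM uninduced and at 630, 618 and 598 CPM stimulated in clone 2. Both clones were above WT without overlap, and the log2 change on stimulation was 0.01 (WT), -0.08 (clone 1) and -0.15 (clone 2). It rose in uninduced clone 1 (log2 fold change 1.02, SE 0.038, edgeR adjusted p 1.3e-19), and its log2 fold changes of 0.94 in uninduced clone 2, 0.94 in stimulated clone 1 and 0.78 in stimulated clone 2 fell short of the fold threshold. *Srebf2*, *Sqle* and *Dgat1* are genes of chromosome 15, whose 407 tested genes with mean levels of 5 CPM or more showed a median difference of 0.46 (log2) in both uninduced clones, 0.45 in stimulated clone 1 and 0.43 in stimulated clone 2. Less that median, *Srebf2* differed by 0.56 and 0.49 and *Sqle* by 0.96 and 1.50 in uninduced clones 1 and 2. In stimulated clones 1 and 2, the values were 0.49 and 0.35 for *Srebf2* and 0.42 and 0.85 for *Sqle*. These stimulated values all lie under the fold threshold, including that of *Sqle* in clone 2, which was called before the subtraction.

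*Scap*, the escort of the SREBP precursors, was at 92.8 to 114 CPM over all 18 libraries. *Insig1* (ENSMUSG00000045294), itself a well-known SREBP target, was at 134, 140 and 152 CPM in uninduced WT cells, at 133, 140 and 140 CPM in clone 1 and at 215, 224 and 200 CPM in clone 2. With TGF-β1 + DMII, the gene was at 87.1, 87.5 and 95.5 CPM, at 131, 133 and 122 CPM and at 147, 162 and 167 CPM, respectively. WT and clone 1 overlapped in uninduced cells, and clone 2 lay above both. None of its comparisons with WT was called, the largest log2 fold change being 0.81 in stimulated clone 2 (SE 0.059, edgeR adjusted p 5.92e-13). *Insig2* was at 84.7, 79.6 and 72.8 CPM in uninduced WT cells and at 42.6, 38.7 and 44.5 CPM after stimulation (log2 fold change -0.91). In clone 1 it was at 74.5, 72.9 and 74.4 CPM uninduced and at 85.8, 83.8 and 80.1 CPM stimulated. In clone 2 it was at 70.8, 69.5 and 67.7 CPM uninduced and at 80.1, 84.9 and 94.6 CPM stimulated. The WT level thus was lower after stimulation and the clone levels were not. Its response differed from WT by 1.08 in clone 1 (SE 0.094, edgeR adjusted p 1.28e-10) and by 1.23 in clone 2 (SE 0.095, edgeR adjusted p 1.01e-11). In stimulated cells *Insig2* lay at the fold threshold, at 0.99 (log2) for clone 1 and 1.04 for clone 2. The second was lost from the calls without WT stimulated replicate 2 (0.99) or clone 2 stimulated replicate 3 (0.98), and the first was gained without WT stimulated replicate 1, WT stimulated replicate 3 or clone 1 stimulated replicate 3 (up to 1.04).

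*Stard4*, a carrier that moves cholesterol between membranes, behaved like the enzymes. It was at 54.2, 54.8 and 54.6 CPM in uninduced WT cells, at 126, 127 and 124 CPM in clone 1 and at 133, 130 and 135 CPM in clone 2. It rose in uninduced clone 1 (log2 fold change 1.20, SE 0.049, edgeR adjusted p 1.1e-18) and clone 2 (1.28, SE 0.049, edgeR adjusted p 1.97e-19). After stimulation it was at 89.9, 88.3 and 93.2 CPM in WT cells, at 142, 137 and 138 CPM in clone 1 and at 158, 154 and 168 CPM in clone 2, still without overlap.

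**Figure D1:**
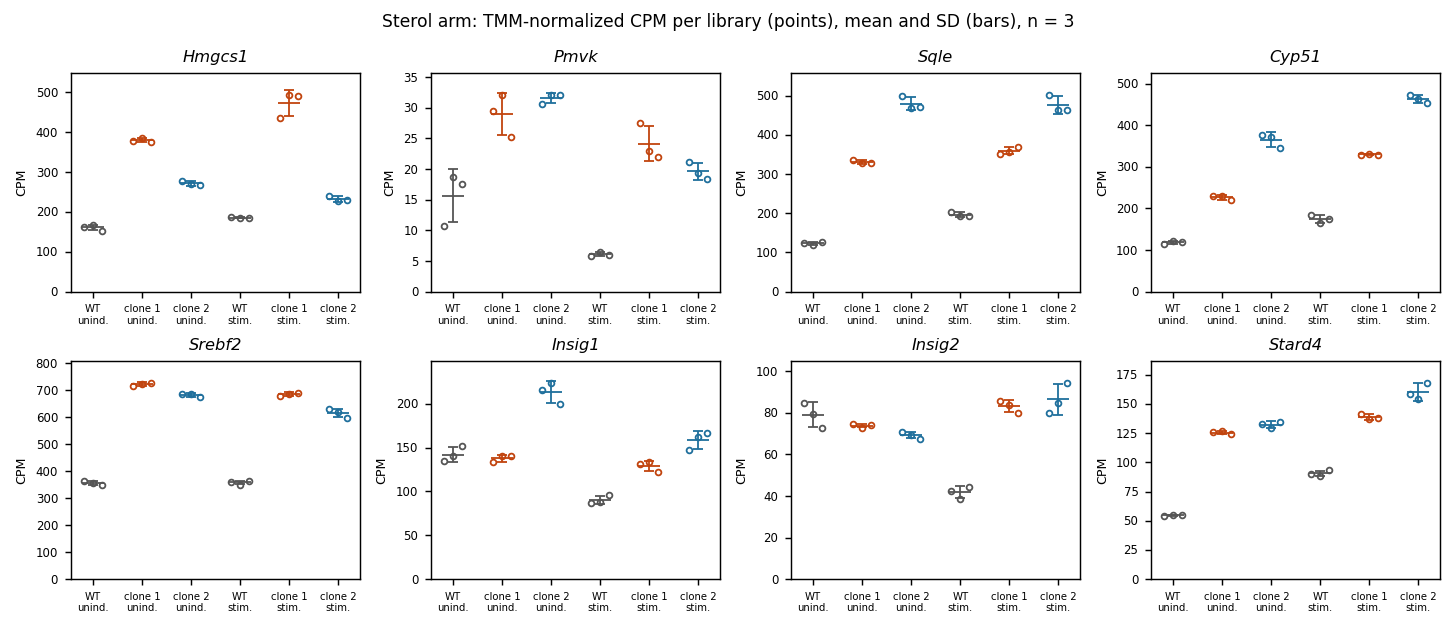
Sterol arm: TMM-normalized CPM (y axis, linear from 0) of 8 members in the 6 groups (x axis), with a point for each library and bars for the mean and SD of 3 libraries. *Sqle*, *Cyp51*, *Srebf2* and *Stard4* sit above WT in both clones in both treatments, whereas *Insig2* separates from WT in stimulated cells.

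The fatty acid and triglyceride arm stood closer to WT before the stimulus than after it, by its median, in both clones. In uninduced cells, 3 of 22 members were called higher and 2 lower in clone 1, and 3 were called higher and 0 lower in clone 2 (DESeq2 Wald test also 0, and 7 lower at an unadjusted p under 0.05). The medians were 0.29 and 0.43. By adjusted p alone, 13 were higher and 7 lower in clone 1, and 14 were higher and 7 lower in clone 2. In stimulated cells, 9 were called higher and 1 lower in clone 1, and 7 were called higher and 0 lower in clone 2 (DESeq2 Wald test also 0, and 2 at an unadjusted p under 0.05), with medians of 0.91 and 0.77. The shares of all genes called in these comparisons are those given for the sterol arm. On stimulation, 2 members rose and 3 fell in WT cells (6.25% and 13.6% of all genes, median -0.18), counts near the shares of all genes. In clone 1, 9 rose and 1, *Acacb*, was called lower (5.95% and 10.7% of all genes, median 0.90). In clone 2, 5 rose and 0 fell (6.46% and 11.2% of all genes, median 0.25). There the DESeq2 Wald test also called 0 lower, and 6 were lower at an unadjusted p under 0.05. The call of *Acacb* rests on 1 library with counts, and without clone 1 uninduced replicate 3, or with only the groups compared, 0 members were called lower in clone 1. The summed level of the arm was 4141 to 4620 CPM in uninduced and 4677 to 4768 CPM in stimulated WT cells. It was 5011 to 5329 CPM in uninduced and 11437 to 12331 CPM in stimulated clone 1, and 6009 to 6478 CPM and 9298 to 9891 CPM in clone 2. These sums rest mostly on *Scd2*, *Scd1* and *Fasn*, with group means of 2075, 199 and 396 CPM in uninduced WT cells. In stimulated clone 1 their means were 4260, 2521 and 1797 CPM.

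*Srebf1* (ENSMUSG00000020538, chromosome 11 of GRCm38 from 60199089 to 60222581) responded in clone 1. It was at 86, 81.2 and 71.8 CPM in uninduced WT cells, at 93.5, 90.5 and 87.3 CPM in clone 1 and at 72.8, 69.7 and 73.5 CPM in clone 2. Following TGF-β1 + DMII, it was at 70.4, 69 and 63 CPM in WT cells, at 198, 205 and 205 CPM in clone 1 and at 73.5, 75.1 and 76.1 CPM in clone 2. Stimulated clone 1 thus stood apart from every other group. *Srebf1* rose 3.01-fold over WT in stimulated clone 1 (log2 fold change 1.59, SE 0.059, edgeR adjusted p 5.03e-20), and in stimulated clone 2 the log2 fold change was 0.15 (SE 0.06, edgeR adjusted p 0.0347). Its response was larger in clone 1 than in clone 2 by 1.11 on the log2 scale (edgeR adjusted p 3.63e-11).

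Among the genes that supply acetyl-CoA and NADPH, *Acly*, ATP citrate lyase, followed the sterol arm. It was at 239, 232 and 253 CPM in uninduced WT cells, at 437, 418 and 422 CPM in clone 1 and at 534, 514 and 537 CPM in clone 2. Stimulated libraries had it at 254, 253 and 252 CPM, at 368, 365 and 379 CPM and at 343, 321 and 338 CPM, respectively. The gap was widest before stimulation. *Acly* rose in uninduced clone 2 (log2 fold change 1.13, SE 0.043, edgeR adjusted p 1.97e-19). On stimulation it fell in clone 2 and not in WT cells (log2 difference in response -0.73, SE 0.061, edgeR adjusted p 4.88e-11), under the fold threshold. *Me1*, malic enzyme, which yields NADPH, rose in stimulated clone 1, at 217, 228 and 225 CPM against 116, 110 and 99.9 CPM in WT cells (log2 fold change 1.04, SE 0.056, edgeR adjusted p 5.26e-16). That value is just over the fold threshold, and 14.6% of the 100-base stretches of *Me1* occur in other genes. *Acss2*, which activates acetate, was at 7.34 to 27.1 CPM over all libraries and was not called in any comparison with WT.

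Fatty acid synthase, *Fasn* (ENSMUSG00000025153, chromosome 11 of GRCm38 from 120805846 to 120824547), was at 440, 370 and 379 CPM in uninduced WT cells, at 578, 545 and 589 CPM in clone 1 and at 757, 716 and 672 CPM in clone 2. With TGF-β1 + DMII, the gene was at 500, 520 and 511 CPM in WT cells, at 1591, 1998 and 1803 CPM in clone 1 and at 1250, 1327 and 1380 CPM in clone 2. The groups did not overlap within a treatment, and the separation was wider after stimulation. *Fasn* rose 3.52-fold in stimulated clone 1 (log2 fold change 1.82, SE 0.073, edgeR adjusted p 7.44e-15) and 2.59-fold in stimulated clone 2 (1.37, SE 0.072, edgeR adjusted p 8.8e-13). Its response exceeded that of WT by 1.29 in clone 1 (edgeR adjusted p 1.94e-09) and by 0.52 in clone 2 (edgeR adjusted p 0.000398), where the latter did not reach the fold threshold.

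The carboxylases that make malonyl-CoA differed. *Acaca*, the cytosolic enzyme, was called higher in stimulated clone 2, at 361, 379 and 386 CPM against 151, 150 and 150 CPM in WT cells, and was at 269, 309 and 298 CPM in clone 1 (log2 fold change 0.96). Of its 100-base stretches, 23.7% occur in other genes. *Acacb* encodes the form at the mitochondrial surface that restrains fatty acid oxidation. It was at 6.35, 3.15 and 4.31 CPM in uninduced WT cells and at 2.2, 3.24 and 2.75 CPM in stimulated WT cells. In uninduced clone 1 it had counts in 1 library (0.57 CPM), and in stimulated clone 1 it had 0 counts in 3 of 3 libraries, a level at least 4.33-fold lower with a floor of 3 counts over the group. With the same floor, 0.0442 CPM, *Acacb* was at least 62.2-fold lower in stimulated clone 1 than in WT, where the pooled level was 2.75 CPM. The floor covers counting error only. Clone 2 had it at 3.57, 3.54 and 3.65 CPM uninduced and at 1.85, 2.35 and 2.04 CPM stimulated, which overlapped WT.

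The elongases *Elovl5* and *Elovl6*, which extend polyunsaturated and saturated chains respectively, were lower in uninduced clones and higher in stimulated clones than in WT by adjusted p alone. *Elovl6* was at 243, 219 and 210 CPM in uninduced and at 66.2, 58 and 61 CPM in stimulated WT cells, the largest fall among the 45 members on stimulation of WT cells (log2 fold change -1.86, SE 0.065, edgeR adjusted p 1.76e-20). In clone 1 it was at 157, 157 and 160 CPM uninduced and at 156, 178 and 176 CPM stimulated. In clone 2 it was at 179, 163 and 170 CPM uninduced and at 95.9, 103 and 111 CPM stimulated. Uninduced and stimulated levels overlapped in clone 1 and did not overlap in clone 2. The response of *Elovl6* differed from WT by 1.97 in clone 1 (SE 0.09, edgeR adjusted p 5.68e-17) and by 1.13 in clone 2 (SE 0.09, edgeR adjusted p 2.26e-11). *Elovl5* was at 174 to 195 CPM in uninduced WT cells and at 120 to 131 CPM in the uninduced clones. After stimulation it was at 153 to 163 CPM (WT), at 227 to 242 CPM in clone 1 and at 189 to 197 CPM in clone 2. *Elovl1*, which extends very long chains, was at 78.8 to 123 CPM over all libraries and was not called.

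Per kilobase of the listed gene length, *Scd2* led the 45 members in every group, at 381 CPM per kb in uninduced WT cells. *Scd1*, the stearoyl-CoA desaturase of adipocytes and liver, was at 41.1 CPM per kb in uninduced WT cells and came second to *Scd2* in both stimulated clones, at 521 CPM per kb in clone 1 and 305 in clone 2. *Scd1* (ENSMUSG00000037071, chromosome 19 of GRCm38 from 44394451 to 44407709) was at 207, 199 and 191 CPM in uninduced WT cells, at 253, 246 and 308 CPM in clone 1 and at 249, 242 and 232 CPM in clone 2. Following TGF-β1 + DMII, it was at 290, 278 and 284 CPM in WT cells, at 2480, 2715 and 2369 CPM in clone 1 and at 1386, 1531 and 1512 CPM in clone 2. The uninduced groups lay close together and the stimulated clones stood far above all others. *Scd1* rose 8.89-fold over WT in stimulated clone 1 (log2 fold change 3.15, SE 0.07, edgeR adjusted p 2.86e-21) and 5.2-fold in stimulated clone 2 (2.38, SE 0.068, edgeR adjusted p 4.47e-19). Its response exceeded that of WT by 2.72 in clone 1 (SE 0.094, edgeR adjusted p 9.46e-17) and by 2.1 in clone 2 (SE 0.093, edgeR adjusted p 1.53e-14).

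*Scd2* was at 2208, 2093 and 1924 CPM in uninduced WT cells, at 2345, 2172 and 2325 CPM in clone 1 and at 3083, 2901 and 2800 CPM in clone 2. Stimulated libraries had it at 2202, 2147 and 2169 CPM, at 4140, 4307 and 4332 CPM and at 3847, 4049 and 4136 CPM, respectively. Both stimulated clones lay above stimulated WT cells without overlap, by 0.97 on the log2 scale for clone 1 (SE 0.046, edgeR adjusted p 2.1e-17) and 0.88 for clone 2 (SE 0.046, edgeR adjusted p 2.22e-16), under the fold threshold. Only 2.58% of the 100-base stretches of *Scd1* and 0.879% of those of *Scd2* occur in other genes. The front-end desaturases *Fads1* and *Fads2* were higher in every clone group by adjusted p alone, *Fads1* at 351 to 423 CPM in the clones and 230 to 273 CPM in WT cells.

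The acyl-CoA synthetases activate fatty acids for esterification or oxidation. *Acsl1* (ENSMUSG00000018796, chromosome 8 of GRCm38 from 46471037 to 46536051) was at 23, 25 and 24.7 CPM in uninduced WT cells, at 51.8, 54.6 and 58.5 CPM in clone 1 and at 46.4, 43 and 44.3 CPM in clone 2. With TGF-β1 + DMII, the gene was at 20.1, 21.1 and 18.8 CPM in WT cells, at 205, 245 and 222 CPM in clone 1 and at 55.8, 57.7 and 52.7 CPM in clone 2. Stimulated clone 1 was far above all other groups. *Acsl1* rose 11.2-fold in stimulated clone 1 (log2 fold change 3.48, SE 0.073, edgeR adjusted p 4.98e-26), the largest fitted rise of a member against WT with *Dgat2* next, and 2.76-fold in stimulated clone 2 (1.47, SE 0.074, edgeR adjusted p 1.26e-16). In the annotation, 9.91% of its exonic bases lie under an antisense gene. *Acsl4*, which prefers arachidonate, rose on stimulation in each genotype, from 34.7 to 37.9 CPM to 200.3 to 205 CPM in WT cells, from 21.7 to 22.4 CPM to 118 to 128 CPM in clone 1 and from 51.2 to 54.2 CPM to 337 to 358 CPM in clone 2. The log2 fold changes were 2.47, 2.48 and 2.74, and clone 1 was below and clone 2 above WT in both treatments. *Acsl3*, found on lipid droplets, rose in both uninduced clones, at 73.4 to 92.4 CPM against 35.8 to 38.1 CPM, and on stimulation in WT cells (log2 fold change 1.42, SE 0.059, edgeR adjusted p 1.06e-18).

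The last 5 genes build triglyceride on glycerol 3-phosphate. *Gpam*, which adds the first acyl chain, was at 27.1 to 47.9 CPM over all libraries and was not called. *Agpat2*, which adds the next chain, was at 16.4, 21.7 and 16.7 CPM in uninduced WT cells, at 47.8, 40.2 and 47.6 CPM in clone 1 and at 33.6, 35.2 and 29.6 CPM in clone 2. After stimulation it was at 13.4, 12.2 and 13.8 CPM in WT cells, at 109, 121 and 99.7 CPM in clone 1 and at 19.7, 18.7 and 18.2 CPM in clone 2. As with *Srebf1* and *Acsl1*, stimulated clone 1 stood apart. *Agpat2* rose 8.37-fold in stimulated clone 1 (log2 fold change 3.06, SE 0.1, edgeR adjusted p 5.17e-21), and in stimulated clone 2 the log2 fold change was 0.52 (SE 0.11, edgeR adjusted p 0.000194). *Lpin1*, a phosphatidate phosphatase, fell on stimulation in WT cells, from 28.8 to 34.3 CPM to 9.73 to 12.5 CPM. It was at 12.4 to 13.4 CPM uninduced and at 8.15 to 11.6 CPM stimulated in clone 1, and at 37.1 to 41.4 CPM and 24.3 to 25 CPM in clone 2.

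*Dgat1* and *Dgat2* encode the unrelated enzymes that add the final chain. *Dgat1* (ENSMUSG00000022555, chromosome 15 of GRCm38 from 76502015 to 76511953) was at 23.4, 30.4 and 23.5 CPM in uninduced WT cells, at 36, 31.2 and 33.6 CPM in clone 1 and at 29.7, 32.5 and 29.4 CPM in clone 2. Following TGF-β1 + DMII, it was at 40.7, 38.1 and 44.6 CPM in WT cells, at 232, 215 and 207 CPM in clone 1 and at 137, 134 and 133 CPM in clone 2. The stimulated clones lay above WT without overlap, by 5.3-fold in clone 1 (log2 fold change 2.41, SE 0.077, edgeR adjusted p 3.35e-21) and 3.28-fold in clone 2 (1.71, SE 0.077, edgeR adjusted p 1.37e-17). Less the median of chromosome 15, the log2 differences were 1.96 and 1.28.

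*Dgat2* (ENSMUSG00000030747, chromosome 7 of GRCm38 from 99153658 to 99182719) was at 41, 44.6 and 36 CPM in uninduced WT cells and fell to 13.6, 15 and 15.3 CPM on stimulation (log2 fold change -1.46, SE 0.08, edgeR adjusted p 6.82e-16). In clone 1 it was at 65.8, 66.2 and 65.7 CPM uninduced and rose to 155, 168 and 144 CPM. Clone 2 had it at 90.7, 90.8 and 85.1 CPM uninduced and at 101, 108 and 111 CPM stimulated. The WT and clone levels thus moved apart. In stimulated cells *Dgat2* was 10.6-fold higher in clone 1 (log2 fold change 3.41, SE 0.077, edgeR adjusted p 3.56e-25) and 7.26-fold higher in clone 2 (2.86, SE 0.078, edgeR adjusted p 3.14e-23). Its response differed from WT by 2.70 in clone 1 (SE 0.1, edgeR adjusted p 8.82e-19) and by 1.72 in clone 2 (SE 0.1, edgeR adjusted p 4.8e-14).

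**Figure D2:**
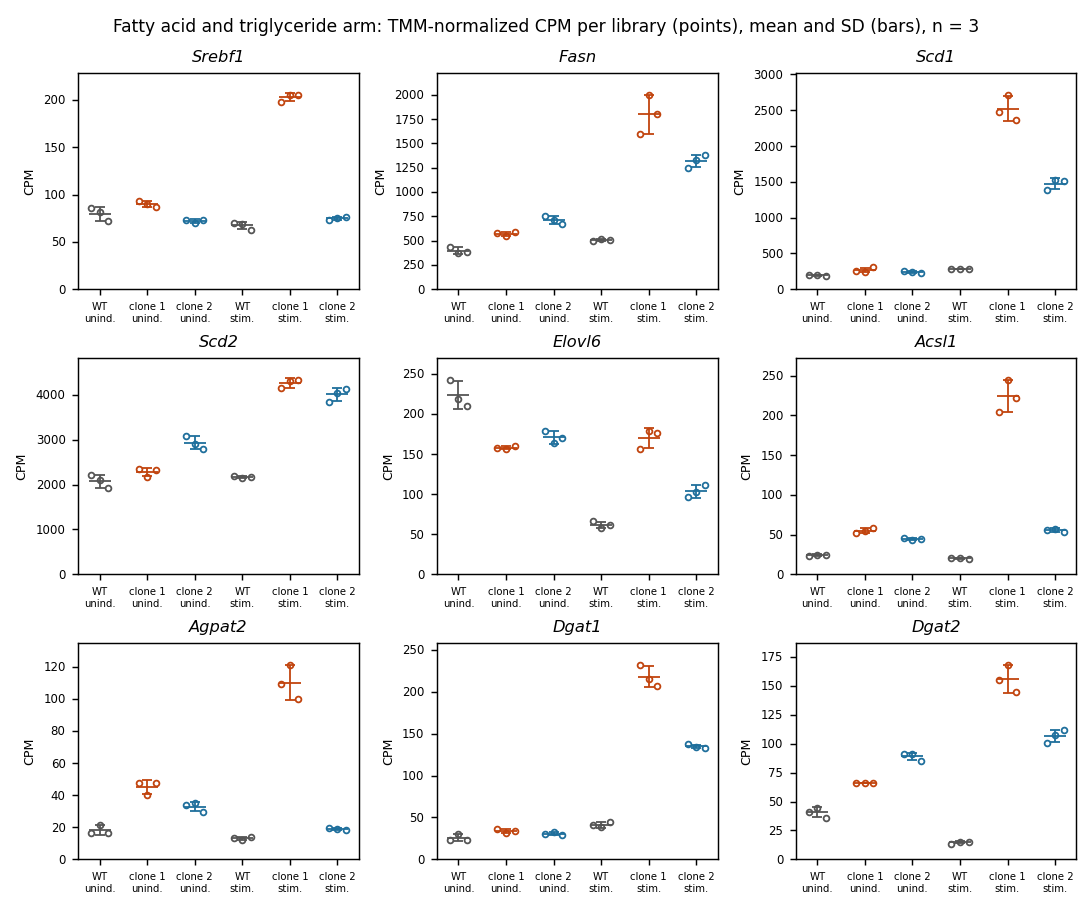
Fatty acid and triglyceride arm: TMM-normalized CPM (y axis, linear from 0) of 9 members in the 6 groups (x axis), with a point for each library and bars for the mean and SD of 3 libraries. *Scd1* at 2369 to 2715 CPM in stimulated clone 1 and 1386 to 1531 CPM in stimulated clone 2 lies far above WT, and *Srebf1*, *Acsl1* and *Agpat2* stand apart in stimulated clone 1.

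Set side by side, the arms had different medians of the difference in response, the log2 change of a clone on stimulation minus that of WT. This difference has a sign, so a higher value can be a larger rise or a smaller fall in the clone than in WT. In clone 1, 11 of 22 fatty acid and triglyceride members and 2 of 23 sterol members (1 without WT uninduced replicate 2) were called higher. In both arms 0 were called lower, where 5.34% of all genes were called higher and 3.46% lower. At an unadjusted p under 0.05, 3 and 6 members respectively were lower, and the DESeq2 Wald test called 1 lower in each arm. In clone 2, 4 of 22 and 1 of 23 members were called higher, and 0 and 1 lower, against 4.89% and 2.96% of all genes. In the first arm 3 members were lower at an unadjusted p under 0.05, and the DESeq2 Wald test called 0. The medians were 0.93 for the fatty acid and triglyceride arm and 0.0077 for the sterol arm in clone 1, and 0.41 and -0.38 in clone 2, against -0.0067 and -0.0077 over all genes. By adjusted p alone, 15 members of the fatty acid and triglyceride arm were higher and 2 lower in clone 1, and 6 and 4 of the sterol arm (15.9% and 15.7% of all genes). In clone 2 the counts were 14 and 2, and 4 and 14 (15.9% and 15.3% of all genes). Both differences share the WT libraries. The difference between the arms is described by these counts and medians and was not tested.

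**Figure D3:**
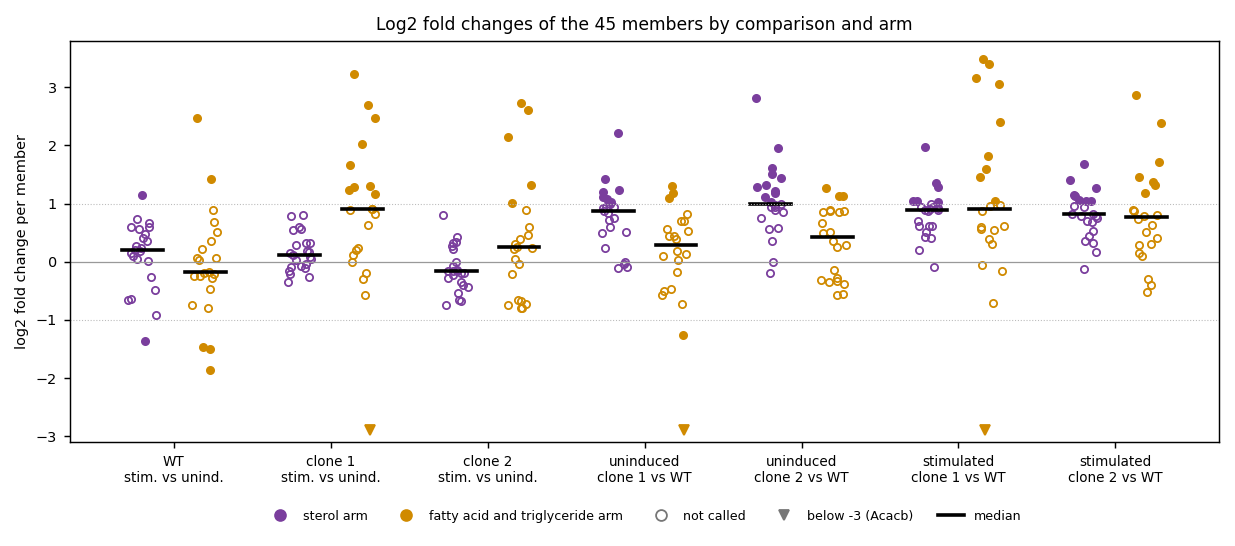
Log2 fold change (y axis) of each of the 45 members in 7 comparisons (x axis), with the sterol arm in purple, the fatty acid and triglyceride arm in orange, filled points for called members, open points for the others, dotted lines at the fold threshold, bars for arm medians and triangles for *Acacb* values below the axis. The sterol medians are 0.87 and 1.00 in uninduced and 0.89 and 0.81 in stimulated clones, while those of the other arm are 0.29 and 0.43 in uninduced and 0.91 and 0.77 in stimulated clones.

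The members whose response was called different from WT in both clones were *Scd1*, *Dgat1*, *Dgat2*, *Elovl6* and *Insig2*. In clone 1 the others were *Srebf1*, *Fasn*, *Acsl1*, *Agpat2*, *Me1*, *Elovl5*, *Lpin1* and *Pmvk*, with log2 differences of 1.01 to 2.30. In clone 2 the log2 change of *Fdps* was below that of WT (-1.68, SE 0.54, edgeR adjusted p 0.0191). That value rests on WT levels of at most 2.43 CPM and was not called without WT stimulated replicate 3. The WT cells lowered *Dgat2*, *Elovl6*, *Insig2*, *Pmvk* and *Lpin1* on stimulation, so these differences include a WT fall. By adjusted p alone, *Srebf1*, *Me1*, *Elovl5*, *Acsl1* and *Agpat2* were lower in stimulated WT cells too, with log2 fold changes of -0.47 to -0.19. Their differences in clone 1 thus combine a smaller WT fall with a rise in clone 1. *Dgat2* and *Insig2* were also higher after stimulation in both clones. In uninduced and stimulated clone 1, *Pmvk* had group means of 28.9 and 24.2 CPM and *Lpin1* of 12.9 and 10.4 CPM, with no rise. Means of *Elovl6* were 158 and 170 CPM in clone 1, and 171 and 103 CPM in clone 2. For *Scd1*, *Dgat1* and *Fasn* the WT level was higher after stimulation, and the difference came from larger increases in the clones.

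**Figure D4:**
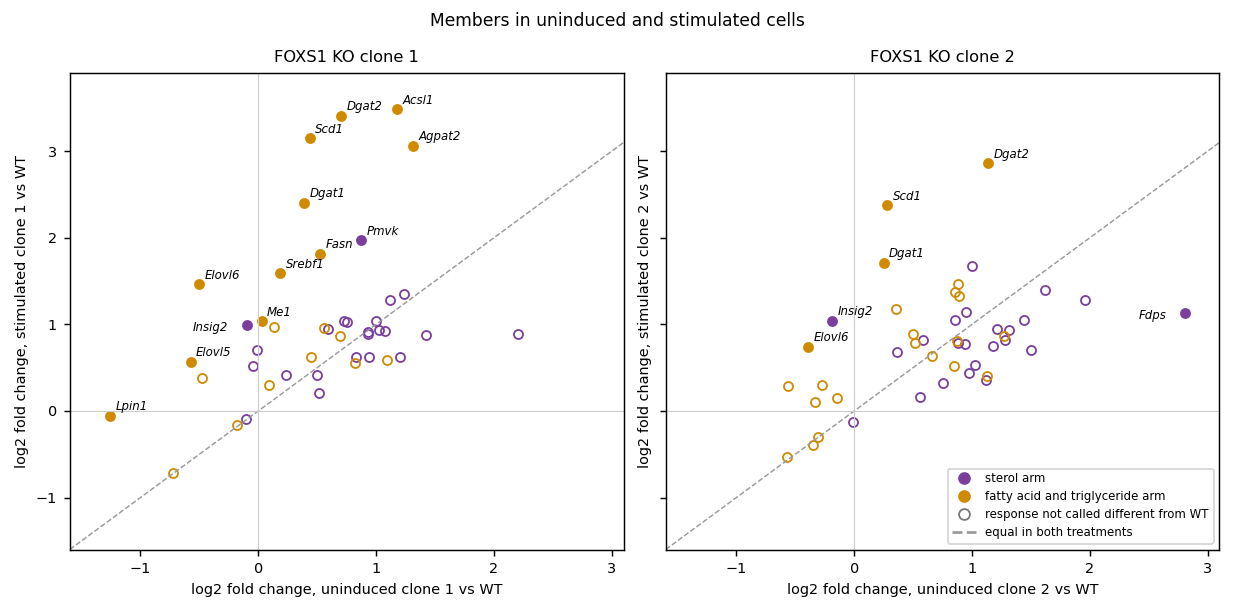
Log2 fold change against WT in uninduced cells (x axis) and stimulated cells (y axis) for members in clone 1 (left) and clone 2 (right), with filled points where the response was called different from WT and a dashed line where both treatments are equal; *Acacb* in clone 1 lies outside the axes. Sterol members (purple) lie around the line in clone 1 and mostly below it in clone 2, while *Dgat2*, *Scd1* and *Dgat1* (orange) lie far above it in both clones.

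The 10 markers of cycling cells summed to 187 to 208 CPM in uninduced WT cells, 299 to 303 CPM in uninduced clone 1 and 309 to 322 CPM in uninduced clone 2. After stimulation the sums were 281 to 308 CPM (WT), 580 to 678 CPM (clone 1) and 386 to 411 CPM (clone 2). Of the 10, 7 were higher and 1 lower than WT by adjusted p alone in uninduced clone 1, 9 and 1 in uninduced clone 2, 10 and 0 in stimulated clone 1, and 7 and 1 in stimulated clone 2. The marker below WT was *Cdk1* in uninduced clone 1 (41.7 against 48.3 CPM) and *Ccnb1* in clone 2, at 18.9 against 23.2 CPM uninduced and 25.2 against 38 CPM stimulated (means of 3 libraries). Among adipocyte markers, *Plin1*, a lipid droplet coat protein, was at 6.19 to 9.59 CPM and *Cidec* at 6.39 to 8.34 CPM in stimulated clone 1, whereas *Adipoq* and *Cfd* were at most 0.369 CPM and 0 CPM there. The part of either marker group in the results for the synthesis genes was not tested.

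The clones also differed from each other. In stimulated cells, *Hmgcs1* was the sterol member called higher in clone 1 than in clone 2, with 0 of 23 lower by edgeR (8 at an unadjusted p under 0.05). In the other arm, *Srebf1*, *Acsl1* and *Agpat2* were called higher and *Acacb*, *Acsl4* and *Lpin1* lower in clone 1, where 5.5% of all genes were called higher and 4.48% lower. The log2 differences were 1.03 for *Hmgcs1*, 1.44 for *Srebf1*, 2.02 for *Acsl1*, 2.55 for *Agpat2*, -1.50 for *Acsl4* and -1.23 for *Lpin1*. In uninduced cells, *Acacb*, *Acsl4* (-1.25) and *Lpin1* (-1.61) were again called lower in clone 1, and edgeR called 0 members higher, against 4.89% of all genes higher and 3.78% lower, although 3 sterol and 7 other members were higher at an unadjusted p under 0.05. No sterol member was called lower (12 at an unadjusted p under 0.05). The response to the stimulus was called larger in clone 1 than in clone 2 for *Agpat2* (2.09, SE 0.14, edgeR adjusted p 2.85e-12), *Acsl1* (1.72) and *Srebf1* (1.11), against 1.54% of all genes higher and 1.48% lower. For the sterol arm edgeR called 0 larger and 0 smaller (14 and 0 at an unadjusted p under 0.05), and 0 of the other arm smaller (2 at an unadjusted p under 0.05). These comparisons between clones were run with edgeR alone.

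The upstream sequences of the members were examined because the sterol arm moved together. RefSeq promoter windows of GRCm38.p6, from 250 bases before to 50 bases after an annotated start, were matched by symbol for 36 of the 45 members. *Dgat1*, *Dgat2*, *Scd1*, *Scd2*, *Fads1*, *Sqle*, *Fdft1*, *Stard4* and *Fdps* were not matched. Each window was searched on both strands for TCACNCCAC, the core of the sterol regulatory element that SREBPs bind, for CCAAT, the motif of NF-Y, a frequent partner of SREBPs, and for CACGTG, the E-box. No motif contains another. CCAAT was present in 17 of 19 sterol members and in 11 of 17 members of the other arm, and in 41.1% of all 27025 genes with a window. CACGTG was present in 5 of 19 and 1 of 17, and in 8.09% of all genes. TCACNCCAC was present in *Hmgcs1* and *Acsl1*, and in 1.44% of all genes. These matches describe letters in a short window and not sites of binding.

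The 250 bases before the start are printed 5′ to 3′ on the strand of the gene for an early and a late sterol enzyme, *Hmgcs1* and *Cyp51*, and for *Fasn* and *Acsl1* of the other arm, which carry 3 matches each, as *Elovl5* does. Capitals mark a match on either strand (ATTGG is CCAAT read on the other strand), and positions count from 1 at the 5′ end. *Hmgcs1* at chr13:119690101-119690350 (plus strand) has TCACCCCAC at position 114 and ATTGG at positions 14, 75 and 206, and *Cyp51* at chr5:4104698-4104947 (minus strand) has CCAAT at position 222. *Fasn* at chr11:120824548-120824797 (minus strand) has ATTGG at positions 161 and 192 and CCAAT at 189, where the last pair overlap. *Acsl1* has 2 windows, and the one at chr8:46490716-46490965 (plus strand) has GTGGGGTGA, the reverse complement of TCACCCCAC, at position 175 and ATTGG at positions 79 and 202.
Hmgcs1: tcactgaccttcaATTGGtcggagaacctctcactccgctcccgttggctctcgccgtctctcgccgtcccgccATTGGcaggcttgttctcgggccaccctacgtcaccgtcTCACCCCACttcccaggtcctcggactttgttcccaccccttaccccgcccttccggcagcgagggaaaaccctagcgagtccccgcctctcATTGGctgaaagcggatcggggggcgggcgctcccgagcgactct
Cyp51: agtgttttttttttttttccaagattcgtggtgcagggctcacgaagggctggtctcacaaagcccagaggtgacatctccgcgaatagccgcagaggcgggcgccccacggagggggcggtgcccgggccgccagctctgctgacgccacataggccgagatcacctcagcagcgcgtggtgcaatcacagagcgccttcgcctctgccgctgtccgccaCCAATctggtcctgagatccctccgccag
Fasn: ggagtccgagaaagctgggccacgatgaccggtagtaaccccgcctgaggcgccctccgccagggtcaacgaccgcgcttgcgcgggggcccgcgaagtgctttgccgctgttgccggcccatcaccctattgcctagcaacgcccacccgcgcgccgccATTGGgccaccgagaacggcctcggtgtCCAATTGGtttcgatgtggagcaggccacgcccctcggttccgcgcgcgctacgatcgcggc
Acsl1: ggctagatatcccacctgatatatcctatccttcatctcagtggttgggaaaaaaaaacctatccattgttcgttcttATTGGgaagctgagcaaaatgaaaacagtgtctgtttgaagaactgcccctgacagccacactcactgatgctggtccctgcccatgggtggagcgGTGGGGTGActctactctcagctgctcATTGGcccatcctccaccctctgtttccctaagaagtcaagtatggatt

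Other genes of the same pathways had smaller median differences from WT. Of 8 related sterol genes (*Faxdc2* was not matched by symbol), which lengthen or branch from the isoprenoid chain, reduce sterols or process SREBPs, 0 were called in stimulated clone 1 by edgeR (9.42% of all genes were called higher and 9.6% lower) and *Soat1*, which esterifies cholesterol, was called higher in clone 2 (log2 fold change 1.33, SE 0.059, edgeR adjusted p 5.65e-18), against 7.95% of all genes. By adjusted p alone 4 were higher and 3 lower in clone 1 (28.4% and 30.5% of all genes), and 4 higher and 2 lower in clone 2 (27.7% and 28.3%), with medians of 0.034 and 0.14. Of 31 related genes of fatty acid and triglyceride synthesis, 24 passed the filter on low counts, and 4 were called higher and 1 lower in stimulated clone 1 (9.42% and 9.6% of all genes) and 6 higher and 2 lower in stimulated clone 2 (7.95% and 8.94%), with medians of 0.37 and 0.32. Those called the same way in both clones were *Gpat3*, *Hacd2*, *Mlx*, *Scd3* and *Elovl4*. *Gpat3*, a further glycerol 3-phosphate acyltransferase, was at 8.71, 11.2 and 11.2 CPM in stimulated WT cells, at 45, 47.4 and 45.6 CPM in clone 1 and at 27.5, 27.8 and 26 CPM in clone 2. *Hacd2*, a dehydratase of the elongation cycle, rose by 1.58 in clone 1 and 1.21 in clone 2 on the log2 scale, and *Mlx*, the partner of the carbohydrate-sensing factor ChREBP, by 1.15 and 1.04. *Scd3* was at no more than 1.05 CPM in any library. It shares some 100-base stretches with the far more abundant *Scd1*, and whether reads of *Scd1* were counted for it was not tested. *Elovl4*, which makes very long chains, was at 1.25 to 1.98 CPM in stimulated WT cells and at 0 to 0.336 CPM in the stimulated clones. *Mlxipl*, which encodes ChREBP, did not exceed 0.343 CPM in any library and was not tested.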

How the data were processed

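Poly(A) RNA from 18 libraries, in 6 groups of 3 by genotype and treatment taken from the sample labels, was sequenced as paired reads. The authors aligned reads to mm10 with HISAT2 and deposited raw counts per gene. Which counting program, annotation release and strand setting they used is not given in the sources used here. Counts of all 54532 genes were filtered with filterByExpr (minimum count 10), scaled by TMM and fitted with edgeR 4.0.16 (R 4.3.3) as 6 group means over all 18 libraries, using the robust quasi-likelihood test with Benjamini-Hochberg adjustment over 14317 genes. A gene was called at adjusted p below 0.05 and more than 2-fold change. The DESeq2 1.42.0 Wald test, DESeq2 size factors, no filter on low counts, no fold threshold, fits of only the groups compared, a replicate block and leaving out each library were run as alternatives. The method was tested on simulated data.

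CPM are counts relative to the TMM-scaled library size, and CPM per kb divides by the gene length in the table. Values by library are given for members called the same way in both stimulated clones or whose response was called different from WT in both clones, and for *Hmgcs1*, *Sqle*, *Insig1*, *Srebf2*, *Srebf1*, *Fasn*, *Acly*, *Scd1*, *Scd2* and *Dgat2*. The members, lists, motifs and tests were chosen with earlier results of these data known. The arms were given no set test. Shared 100-base stretches and overlapping exons were computed from a GENCODE M21 annotation, whose coordinates equal those of the table for 39 of 45 members. Library totals of 15576685 to 42005596 counts limit the precision of members under a few CPM, such as *Acacb* and *Fdps*. No 2 libraries of a group held identical counts, and all pairs differed by more than sampling noise.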

Additional observations from a re-analysis of the deposited data

Results flagged for a closer look

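The response to TGF-β1 + DMII differed between genotypes for 22 pairs of a member and a comparison, each by edgeR's quasi-likelihood test of the difference itself. All are log2 differences in response, with 3 libraries in each group, and both clones share the WT libraries.

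In clone 1 against WT, the differences in the sterol arm were 1.10 for *Pmvk* (edgeR adjusted p 9.06e-05) and 1.08 for *Insig2*. Among regulators and enzymes of fatty acid synthesis they were 1.40 for *Srebf1*, 1.01 for *Me1* and 1.29 for *Fasn*. They were 1.14 for *Elovl5* and 1.97 for *Elovl6*, the elongases, and 2.72 for the desaturase *Scd1*. Of the genes that activate fatty acids and build triglyceride, *Acsl1* differed by 2.30, *Agpat2* by 1.75, *Lpin1* by 1.20 (edgeR adjusted p 8.59e-07), *Dgat1* by 2.02 and *Dgat2* by 2.70.

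In clone 2 against WT, the difference was -1.68 for *Fdps* (edgeR adjusted p 0.0191), 1.23 for *Insig2*, 1.13 for *Elovl6*, 2.1 for *Scd1*, 1.46 for *Dgat1* and 1.72 for *Dgat2*.

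In clone 1 against clone 2, the difference was 1.11 for *Srebf1* (edgeR adjusted p 3.63e-11), 1.72 for *Acsl1* (edgeR adjusted p 6.8e-14) and 2.09 for *Agpat2* (edgeR adjusted p 2.85e-12).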

How the results depend on the processing

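Under DESeq2 size factors, the DESeq2 Wald test and the replicate block, all 18 counts of called members stayed within 1.5 times their value and all 18 arm medians moved by less than the spread between libraries, and no named member changed sign under any alternative. The sterol median of the difference in response of clone 1, 0.0077, was near 0 and changed sign with the library left out (-0.034 to 0.035) and without the filter on low counts (-0.019), and no other arm median changed sign. Libraries with the same replicate number did not deviate together (r of -0.041 to 0.050 over 45 pairs, median 0.0016), so the numbers were not taken to pair the libraries, and the block changed no call of a named member. Without the filter on low counts, the medians of the difference in response of clone 2 were -0.45 for the sterol arm and 0.34 for the fatty acid and triglyceride arm. With only the groups compared, 1 sterol member was called in the WT response. The cause was not tested.

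Without the fold threshold, sterol and other members called numbered 19 and 18 in the WT response, 13 and 20 in the clone 1 response, 17 and 19 in the clone 2 response, 19 and 20 in uninduced clone 1, 22 and 21 in uninduced clone 2, 22 and 20 in stimulated clone 1, and 23 and 20 in stimulated clone 2. They numbered 10 and 17 for the difference in response in clone 1 and 18 and 16 in clone 2. With the median of each chromosome subtracted, an alternative chosen after seeing the data, the sterol medians were 0.73 and 1.10 in uninduced clones 1 and 2 and 0.80 in stimulated clone 1, and those of the other arm were 0.16 and 0.32 in uninduced clones and 0.65 in stimulated clone 2.

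Leaving out each library in turn, the sterol members called ranged from 1 to 2 in the WT response (1 without WT uninduced replicate 1 or 2, or WT stimulated replicate 3), from 1 to 3 for the difference in response of clone 1 (1 without WT uninduced replicate 2 and 3 without WT uninduced replicate 3) and from 1 to 2 for that of clone 2 (1 without WT stimulated replicate 3). The sterol median ranged from 0.96 to 1.13 in uninduced clone 2 and from -0.41 to -0.31 for the difference in response of clone 2. The median of the other arm ranged from 0.22 to 0.32 in uninduced clone 1 and from 0.33 to 0.45 for the difference in response of clone 2. *Insig2* ranged from 0.94 to 1.04 in stimulated clone 1 and from 0.98 to 1.10 in stimulated clone 2, across the threshold.

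Each KO group is 1 clone, and the stimulus was given as a whole. Depth limits *Acacb* and *Fdps*, at a few CPM or less. Counts could not be separated by strand for members under antisense genes.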
